A study of Homo sapiens with 4 samples.

Results

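When the autosomes of HEK293T cells were divided into 1 Mb bins, 274 of the 2734 bins that held a listed CpG had a read depth that differed between ZNF274KO and WT libraries by more than a set margin. Depth was the number of read calls over the CpGs of a bin, scaled to 1000000 such calls on chromosomes 1 to 22 in the same library. A bin was a member when the mean depth of the ZNF274KO libraries divided by that of the WT libraries was below 0.85 (238 lower-depth bins, 8.71% of all bins) or more than 15% above 1 (36 higher-depth bins). The bins were thus chosen by their depth in these libraries, which is given throughout as a description without a test. The share of methylated CpG calls (mCG level), which the choice did not use, was tested.

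The study profiled DNA methylation with EM-seq, a method that converts cytosine enzymatically and reads it as thymine unless it was methylated. Genomic DNA of HEK293T, a human embryonic kidney line carrying the SV40 large T antigen, was sequenced in 2 WT and 2 ZNF274KO libraries with no further treatment. The knockout cells had received Cas9 with guides on both sides of the ZNF274 gene, were selected with puromycin and were sorted as single cells, so that each knockout line descends from 1 cell. The paper also used WT clones, for Hi-C, and does not say whether the WT libraries here came from clones. The labels do not say which clone gave which library, nor whether the libraries of a group came from separate cultures, and the p-values below measure the spread between these 4 samples only.

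The 4 libraries held 231142190 to 282380907 autosomal calls, with a median of 8 to 10 calls per CpG. Over the ZNF274 gene, 5158 and 4275 calls were listed in WT 1 and WT 2, against 0 in ZNF274KO 1 and 14 in ZNF274KO 2. The autosomal mCG level was 60.4% (WT 1), 61.5% (WT 2), 61.4% (ZNF274KO 1) and 59.5% (ZNF274KO 2). The libraries of a group differed by 1.13 points (WT) and 1.86 points (ZNF274KO), more than the group means, 60.9% and 60.4%.

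Read depth over a long stretch of genome follows the number of copies of that stretch in the cells sampled, and also its base composition and how well reads can be placed in it. HEK293T has an unstable, aneuploid karyotype, and cultures and clones of the line are known to differ in copy number. The mCG level is a ratio of calls at the same site, so it does not scale with depth, although fewer calls make it less precise. ZNF274 is a zinc finger protein of the KRAB family (KZFP) that binds the 3′ ends of other KZFP genes and recruits the KAP1 corepressor and the H3K9 methyltransferase SETDB1.

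The methylation changes described further down fell on few genes of the member bins, and 3 stretches are printed, with levels pooled over the CpGs of each. They were chosen as the 300-base window with the largest change, in the direction of the gene, among windows in or within 1 kb of the gene that held at least 6 CpGs with 40 calls in every library and whose sampled 20-base words each occurred once on that strand of the chromosome. Windows that overlap an annotated exon were left out for the genes that rose, and for SP9 only those that overlap a UTR. That the windows lie outside these features was thus set by the choice. ZNF454 had the largest rise among genes of higher-depth bins, ZFP82 the largest among genes of lower-depth bins, and SP9 was the gene that fell. The sequences are those of the GRCh37 reference, plus strand, with every CpG in capitals.
ZNF454, chr5:178378312-178378611: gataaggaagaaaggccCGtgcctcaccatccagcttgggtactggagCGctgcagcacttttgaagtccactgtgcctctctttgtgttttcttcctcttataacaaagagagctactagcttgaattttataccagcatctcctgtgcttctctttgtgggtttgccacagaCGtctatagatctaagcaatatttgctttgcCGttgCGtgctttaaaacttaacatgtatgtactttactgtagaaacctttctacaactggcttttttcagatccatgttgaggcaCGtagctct
ZFP82, chr19:36892432-36892731: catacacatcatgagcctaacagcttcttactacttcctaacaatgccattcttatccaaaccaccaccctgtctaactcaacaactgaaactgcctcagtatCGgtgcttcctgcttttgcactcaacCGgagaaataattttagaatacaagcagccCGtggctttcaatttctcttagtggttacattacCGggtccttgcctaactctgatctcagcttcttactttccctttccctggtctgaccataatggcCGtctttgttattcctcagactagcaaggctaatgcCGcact
SP9, chr2:175199942-175200241: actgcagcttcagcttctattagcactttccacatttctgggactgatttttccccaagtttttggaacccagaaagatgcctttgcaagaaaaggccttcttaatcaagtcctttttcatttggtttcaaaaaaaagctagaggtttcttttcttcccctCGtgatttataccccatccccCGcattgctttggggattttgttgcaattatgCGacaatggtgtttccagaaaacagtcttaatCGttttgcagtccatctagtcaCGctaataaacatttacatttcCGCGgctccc

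The ZNF454 window, which holds 6 CpGs and overlaps no annotated exon, had a level of 12.2% in WT 1 and 6.41% in WT 2, against 86.8% in ZNF274KO 1 and 78.7% in ZNF274KO 2. In the ZFP82 window, also with 6 CpGs and no exon, the levels were 20.3% and 43.8% in the WT libraries and 87.2% and 66.7% in the ZNF274KO libraries. The SP9 window, with 7 CpGs, overlaps an exon of another annotated gene but no UTR, and its levels were 47.2% and 36.1% in WT against 11.4% and 14.8% in ZNF274KO. The groups did not overlap in any of the windows, which were picked for their difference and carry no test.

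The member bins lay on 8 of the 22 autosomes. Chromosome 2 held 103 of them among its 242 bins, chromosome 9 held 48 of 125, chromosome 6 held 29 of 170, chromosome 3 held 28 of 196, chromosome 19 held 22 of 58 and chromosome 1 held 4 of 230, all lower. Chromosome 4 held 22 higher-depth and 4 lower-depth bins, and chromosome 5 held 14 higher-depth bins. On the 14 chromosomes with no member, the ratio had a median of 1.03 and stayed between 0.918 and 1.12 over 1344 bins. The lowest ratio, 0.705, was that of chr1:246000001-247000000 and the highest, 1.22, that of chr5:178000001-179000000. At the lower threshold the bin just inside was chr9:42000001-43000000 at 0.8491 and the bin just outside chr4:184000001-185000000 at 0.8503. At the higher threshold, chr5:172000001-173000000 at 1.151 lay just inside and its neighbour chr5:173000001-174000000 at 1.147 just outside. The bins nearest either limit thus differed little from those beyond it.

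**Figure D1:**
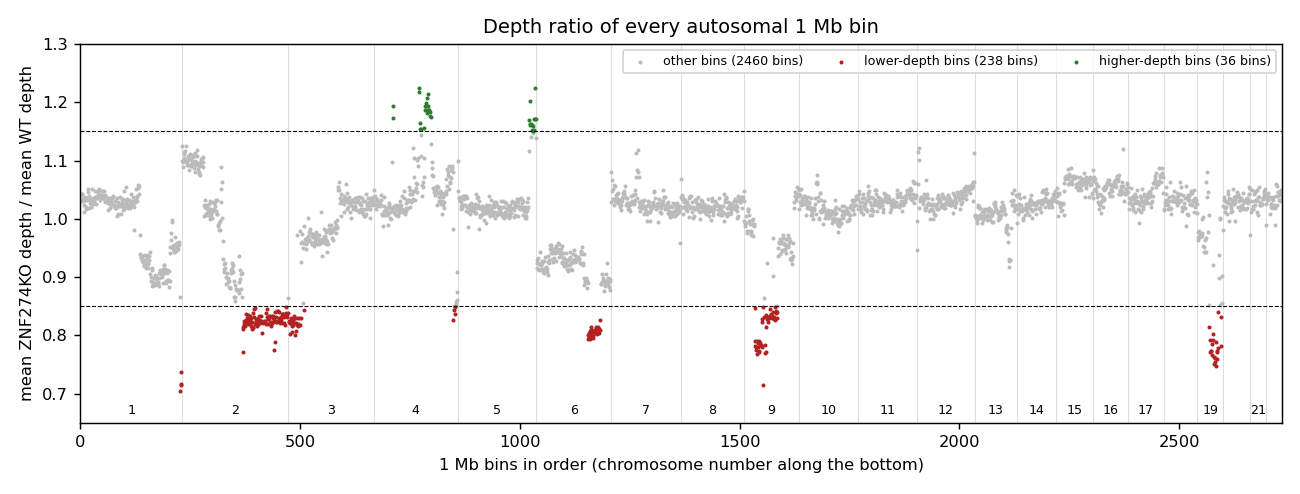
Mean ZNF274KO depth over mean WT depth (y axis) of the 2734 autosomal 1 Mb bins in chromosome order (x axis), with chromosome numbers along the bottom and dashed lines at both thresholds. The 238 lower-depth bins (red) and 36 higher-depth bins (green) form runs on 8 chromosomes, and the bins of the other 14 stay between 0.918 and 1.12.

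The members were not scattered but formed 24 runs of adjacent bins, here called blocks, of which 17 were lower and 7 higher. The 7 blocks of 10 bins or more held 213 of the 274 bins, and 2 blocks were a single bin. Every member had at least 1473 listed CpGs and at least 3639 calls a library. Some blocks were thinly covered for their number of CpGs. Calls per CpG were 0.234 to 0.319 of the autosomal mean of the same library in chr9:45000001-48000000. At the end of chromosome 1, chr1:246000001-250000000, they were 0.318 (WT 1), 0.574 (WT 2), 0.323 (ZNF274KO 1) and 0.319 (ZNF274KO 2). The ratio computed from calls on the Watson strand alone and from the Crick strand alone was 0.814 in both cases for the lower-depth bins pooled, and 1.18 in both cases for the higher-depth bins pooled. The median GC content was 39.3% in lower-depth, 38.0% in higher-depth and 40.4% in other bins. With the ratio divided by its running median over bins ordered by CpG density, however, the higher-depth bins numbered 20 instead of 36 and the lower-depth bins 254 instead of 238.

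Which library carried a shift differed from block to block. In 221 of the 238 lower-depth bins each ZNF274KO library was lower than either WT library, an order found in 16.2% of all bins, and in 28 of the 36 higher-depth bins both lay above, an order found in 40.2% of all bins. Both orders use the contrast that chose the bins. A stricter description asks whether a bin would still be past the same threshold with any 1 library left out. This held for 124 bins, all of them lower, of which 71 lay on chromosome 2, 21 on chromosome 19, 18 on chromosome 3, 13 on chromosome 9 and 1 on chromosome 4. None of the higher-depth bins and none of the bins on chromosomes 1, 5 and 6 met it.

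The longest block was chr2:140000001-243000000, 103 bins that run to near the end of the long arm and hold 537 tested protein-coding genes. Relative to the WT mean of the block, depth was 1.01 (WT 1), 0.986 (WT 2), 0.844 (ZNF274KO 1) and 0.810 (ZNF274KO 2). The WT libraries nearly coincided and both ZNF274KO libraries lay below them. The ratio of 0.827 moved only between 0.810 and 0.844 when any 1 library was left out, and single bins ranged from 0.771 to 0.849.

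Chromosome 3 began with a block of the same kind, chr3:1-21000000, with 21 bins and depths of 1.01, 0.987, 0.842 and 0.802 of the WT mean in WT 1, WT 2, ZNF274KO 1 and ZNF274KO 2. Shorter blocks of 4 and 2 bins followed it at similar values, and a single bin, chr3:35000001-36000000, lay at 0.844. Single bins that missed the threshold separated the blocks up to chr3:27000001-29000000.

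The long arm of chromosome 19, which carries large KZFP clusters, held 22 members in 3 blocks. In chr19:38000001-50000000, with 12 bins, depth was 1.002 and 0.998 of the WT mean in the WT libraries, 0.737 in ZNF274KO 1 and 0.815 in ZNF274KO 2. The block chr19:29000001-37000000 (8 bins) had 0.745 and 0.822 in the ZNF274KO libraries, and chr19:55000001-57000000 (2 bins) had 0.796 and 0.813. The spread of the WT libraries was under 1% of their mean in the first of these blocks, and ZNF274KO 1 was the lower of the knockout libraries in all of them.

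Several bins in the gaps between the chromosome 19 blocks were rich in zinc finger genes. The bin chr19:37000001-38000000, between the first and second block, had a ratio of 0.921 and held 18 zinc finger genes. The bins chr19:52000001-53000000 and chr19:53000001-54000000, with 18 and 21, had 0.9993 and 1.002. Depth in the former was 423 (WT 1), 404 (WT 2), 443 (ZNF274KO 1) and 384 (ZNF274KO 2). In the latter it was 482, 462, 503 and 443 in the same order. These ratios near 1 thus average ZNF274KO 1 above and ZNF274KO 2 below both WT libraries. All the gap bins named so far were also higher in mCG in ZNF274KO. The rises were 7.18, 13.1 and 19.6 percentage points, with adjusted p = 0.00011, 7.67e-12 and 7.51e-30 (edgeR). Zinc finger genes and the gaps did not coincide throughout. The member bins chr19:44000001-45000000 and chr19:56000001-57000000 held 23 and 14 of them at ratios of 0.788 and 0.831. Conversely, chr19:50000001-51000000, with 1 zinc finger gene and a level difference of -0.58 points, had a ratio of 0.938 in which ZNF274KO 1 (a depth of 914) lay above both WT libraries (860 and 872) and ZNF274KO 2 (710) below them.

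In a further set of lower-depth blocks the WT libraries lay apart from each other while the ZNF274KO libraries lay below both. In chr6:119000001-148000000, with 29 bins, depth was 0.899 (WT 1), 1.10 (WT 2), 0.785 (ZNF274KO 1) and 0.827 (ZNF274KO 2) of the WT mean. The ratio of 0.806 became 0.896 without WT 2. In chr9:23000001-44000000, with 21 bins, the same values were 0.923, 1.08, 0.790 and 0.781, and the ratio of 0.785 became 0.851 without WT 2. WT 2 stood above WT 1 in each of these blocks, by 1.22 and 1.17 times.

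In 3 lower-depth blocks the groups overlapped, and the ratio rested on WT 2 alone. The blocks chr9:69000001-81000000 (12 bins) and chr9:83000001-92000000 (9 bins) had depths of 0.840 and 0.830 in WT 1, 1.16 and 1.17 in WT 2, and 0.824 to 0.840 in the ZNF274KO libraries, so that WT 1 could not be separated from them. Without WT 2 the ratios of 0.832 and 0.836 were 0.991 and 1.01. The end of chromosome 1, chr1:246000001-250000000, named here for its extreme ratio, was the clearest case, with a depth of 403 (WT 1), 728 (WT 2), 409 (ZNF274KO 1) and 405 (ZNF274KO 2). Here WT 2 had 1.81 times the depth of WT 1, and the ratio of 0.720 was 1.01 without it.

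The higher-depth blocks rested on WT 1. In chr4:116000001-131000000, with 15 bins, depth was 0.849 (WT 1), 1.151 (WT 2), 1.21 (ZNF274KO 1) and 1.17 (ZNF274KO 2) of the WT mean. Without WT 1 the ratio of 1.19 was 1.03. The last block of chromosome 5, chr5:174000001-180000000 (6 bins), had 0.865, 1.14, 1.16 and 1.196 in the same order, with a ratio of 1.18 that was 1.04 without WT 1.

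The other 4 of the longest higher-depth blocks, chr4:103000001-107000000, chr5:164000001-168000000, chr5:169000001-173000000 and chr4:42000001-44000000, had WT 1 at 0.846 to 0.878, WT 2 at 1.12 to 1.154 and the ZNF274KO libraries at 1.14 to 1.22. A single bin, chr4:108000001-109000000, had a ratio of 1.154. Against 36 higher-depth bins with all libraries, 1 bin lay past the higher threshold when WT 1 was left out, and 97 did when WT 2 was left out. The lower-depth count was 289 without WT 1 and 180 without WT 2.

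**Figure D2:**
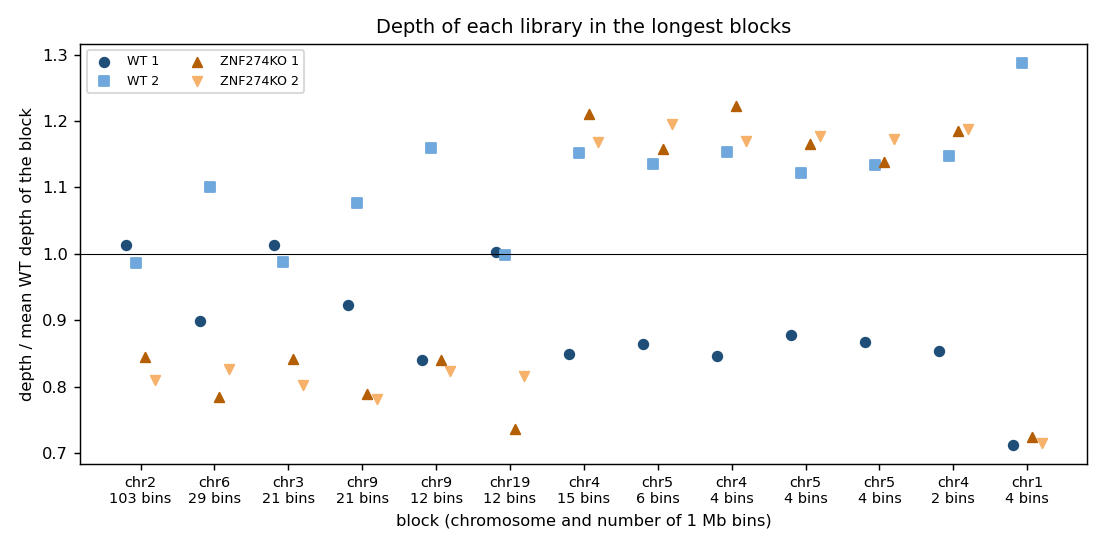
Depth of each library divided by the mean WT depth (y axis) in the 6 longest lower-depth blocks, the 6 longest higher-depth blocks and the last block of chromosome 1 (x axis), 1 point a library. Both WT libraries lie near 1 and both ZNF274KO libraries below 0.85 on chromosomes 2, 3 and 19, WT 1 stands apart below the other libraries in the higher-depth blocks, and WT 2 stands apart above them at the end of chromosome 1.

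Ends of the longest blocks and of some shorter ones were then placed more finely. Not every block end was searched, so the counts below describe a chosen part of them. For each end searched, the position that best split the ratio of 20 kb tiles into 2 levels within 3 Mb was located. This was done for the group means and separately for ZNF274KO 1 over WT 1 and ZNF274KO 2 over WT 2, which share no library. Of the 23 edges at which the ratio of the group means stepped by at least 0.1 on the log2 scale, the positions found from these separate pairs lay within 20 kb of each other in 5, and up to 3360 kb apart in the others. The 5 were those at chr3:29340001, chr4:109660001, chr4:131400001, chr6:147900001 and chr19:58740001. A best split is found even where no step is sharp. At 4 edges, those at chr4:131400001 and chr6:147900001 among them, no library moved by 0.1 or more of the 4-library mean. As the depths beside an edge are given relative to the mean of the 4 libraries, a step in 1 library moves the others slightly the opposite way.

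On chromosome 3 the edge lay at chr3:29340001 in both pairs, within RBMS3, which encodes an RNA-binding protein. Across it the ratio of ZNF274KO 1 to WT 1 went from 0.842 to 0.886, and that of ZNF274KO 2 to WT 2 from 0.849 to 1.07. On chromosome 9, where the pairs placed it 60 kb apart, the edge at chr9:23420001 lay 270 kb from the nearest protein-coding gene, ELAVL2. There the same ratios went from 0.942 to 0.845 and from 1.04 to 0.727. In both places both pairs stepped the same way, and the pair with ZNF274KO 2 stepped by more.

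At 3 further edges the position is that of the group means, and the pairs lay 1560, 80 and 2480 kb apart. At the end of chromosome 1, the edge at chr1:245300001 lay within 20 kb of EFCAB2 and KIF26B. The share of WT 2 rose there from 1.08 to 1.499 of the 4-library mean, but depth itself fell in every library. Between the 100 kb pieces on either side it went from 90.6 to 42.6 in WT 2 and from 78.1 to 22.3 in WT 1. In ZNF274KO 1 and ZNF274KO 2 it went from 79.1 to 24.0 and from 79.7 to 24.1. On chromosome 4, WT 1 rose from 0.811 to 1.12 at chr4:181580001. The step was not confined to WT 1. The ratio of ZNF274KO 2 to WT 2, split at its own position, went from 0.953 to 0.885. As a best split is always found, this does not show whether a library other than WT 1 stepped. At chr19:49900001, near KASH5, which encodes a meiotic dynein adaptor, ZNF274KO 1 rose from 0.873 to 1.10, and the other libraries moved the opposite way by less, as the scale makes them do. Single libraries thus moved apart from the others in both groups, and the edges were not all shared by the libraries of a group.

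The last edge of chromosome 19 lay near the knocked-out gene. ZNF274 spans chr19:58694396-58724928, and both pairs placed the edge at chr19:58740001, where the loss of the gene itself lowers the ZNF274KO tiles. With the 4 tiles in or within 20 kb of the gene left out, a choice made after the values were seen, the group means placed it at chr19:58760001, ZNF274KO 1 over WT 1 at chr19:58780001 and ZNF274KO 2 over WT 2 at chr19:58200001, so that the pairs no longer agreed on the position. In the 100 kb before the gene, depth was 1.02 of the WT mean in WT 1 and 0.9804 in WT 2, against 0.755 in ZNF274KO 1 and 0.820 in ZNF274KO 2. From 10 kb to 100 kb after the gene, it was 0.984, 1.02, 0.988 and 1.05 in the same order. Before the gene the knockout libraries were thus the lower ones, and after it they were within the range of WT or slightly above it.

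The depth before ZNF274 was uneven. It was 0.869 and 0.893 in the ZNF274KO libraries over the 500 kb before the gene (1.03 and 0.971 in WT), with pieces of 100 kb that reached 0.939 and 0.935. Over the 4 Mb before the gene it was 0.827 and 0.833 (1.01 and 0.987 in WT), and over the whole stretch from 10 kb after the gene to the last listed CpG of the chromosome it was 0.954 and 1.07 (0.993 and 1.01 in WT). The bin that holds ZNF274, chr19:58000001-59000000, includes both sides and was not a member, at 0.903. This stretch was looked at after the edge had been seen, and whether the edge arose with the deletion was not tested.

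**Figure D3:**
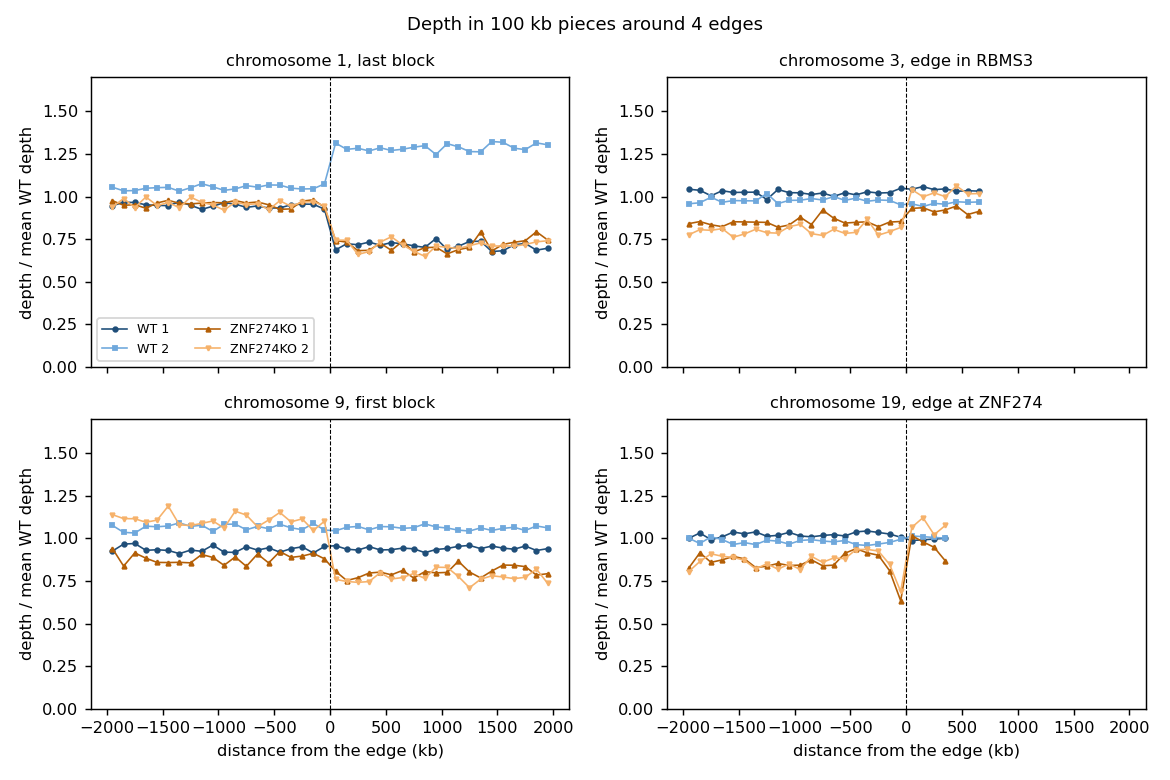
Depth of each library divided by the mean WT depth (y axis) in 100 kb pieces against the distance from the edge in kb (x axis, dashed line at 0) at 4 edges. After the edge on chromosome 1, WT 2 rises and the other libraries fall on this scale, while depth before the division falls in all 4. Both ZNF274KO libraries step on chromosomes 3 and 9, ZNF274KO 2 by more. At ZNF274 both ZNF274KO libraries are below WT before the edge and near or above 1 just after it. The last piece before that edge includes the deleted gene, which lowers it.

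The mCG levels of the members were close to those of the other bins. Over all calls of the lower-depth bins it was 61.9% (WT 1), 63.7% (WT 2), 63.1% (ZNF274KO 1) and 61.2% (ZNF274KO 2), a difference of -0.633 percentage points with group SDs of 1.23 and 1.33 (n = 2 each). Over the higher-depth bins it was 60.6%, 62.1%, 62.2% and 60.4% in the same order, a difference of -0.0358 points with SDs of 1.04 and 1.29. The other 2460 bins differed by -0.477 points, with SDs of 0.751 and 1.31. All these differences were smaller than the spread between libraries of a group, and the sign of the first changed with the library left out (-1.58 to 0.309 points).

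Among single bins the level difference had a median of -0.986 points in lower-depth, -1.17 in higher-depth and -0.811 in other bins. The middle 50% of the lower-depth bins lay between -1.65 and -0.202 points, and that of the higher-depth bins between -2.28 and -0.0400. The level was higher in ZNF274KO in 54 of the 238 lower-depth bins and 9 of the 36 higher-depth bins, against 707 of all 2734 bins (25.9%). Even the block with the widest gap between single libraries, the end of chromosome 1, had levels of 57.4%, 57.97%, 57.8% and 56.3% in the usual order, with WT 2 close to the others.

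Of the 274 member bins, 3 were called for mCG (edgeR quasi-likelihood test, adjusted p under 0.05 over all bins), against 1.32% of all bins, or 36 of 2734. At an unadjusted p under 0.05 there were 10 members, and 116 bins (4.24%) in all. The share of members called, 1.09%, was close to that of all bins. All 3 were higher in ZNF274KO, the direction called in 1.28% of all bins.

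The bin chr5:178000001-179000000, a higher-depth bin with zinc finger genes, had the largest rise, from 61.5% and 59.4% in WT to 73.6% and 69.9% in ZNF274KO (adjusted p = 5.37e-13, edgeR). The bin chr2:168000001-169000000, a lower-depth bin that holds the whole of B3GALT1, had 36.4% and 42.6% in WT and 52.0% and 45.7% in ZNF274KO (adjusted p = 0.0016, edgeR). The bin chr19:38000001-39000000, lower-depth, had 70.6% and 69.9% in WT and 75.6% and 73.6% in ZNF274KO (adjusted p = 0.0469, edgeR). The groups did not overlap in any of the 3 bins.

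These calls depended on the fit, and the size of the differences moved with the library left out. A fit without 1 library leaves 1 library in a group, and the spread then comes from the other group. Such a fit cannot decide on a call, so its estimates are given. The fitted log2 odds ratio of methylation, ZNF274KO over WT, was 0.732 for the chromosome 5 bin with all libraries (edgeR). It was 0.796, 0.668, 0.601 and 0.864 without WT 1, WT 2, ZNF274KO 1 and ZNF274KO 2. In the same order the chromosome 2 bin, at 0.552 with all libraries, had 0.362, 0.742, 0.370 and 0.734. The chromosome 19 bin, at 0.317, had 0.340, 0.294, 0.241 and 0.393. By limma the chromosome 19 bin was lost (adjusted p = 0.400) at the same estimate of 0.317. With log-odds centred on the genome-wide level the chromosome 19 and chromosome 2 bins were lost (0.0946 and 0.235, edgeR).

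The called bins were also set against their neighbours in depth. The chromosome 5 bin had the highest depth ratio of all bins, 1.22, where its 7 uncalled neighbours within 5 bins had a median of 1.16. The chromosome 19 bin at 0.802 also lay above its neighbours' median of 0.763, and the chromosome 2 bin at 0.847 above 0.826. Of all 36 called bins, 29 had a ratio above the median of their uncalled neighbours, by a median of 0.0336 over the 36, where 1355 of all 2734 bins (49.6%) lay above theirs. This was looked for after the values had been seen, uses the contrast that chose the members, and is given without a test. Several called bins were adjacent and shared neighbours, so the 36 are not independent.

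**Figure D4:**
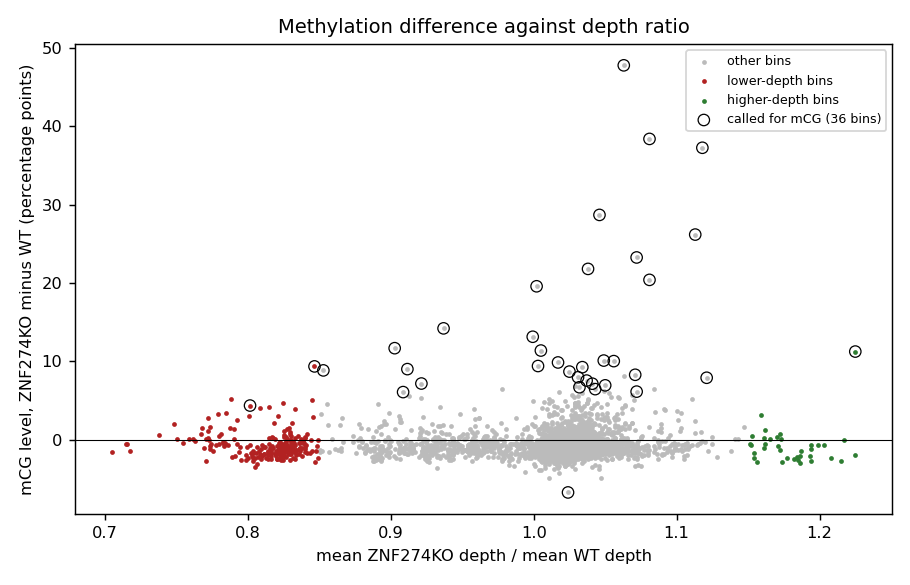
Difference of the mCG level, ZNF274KO minus WT in percentage points (y axis), against the depth ratio (x axis) for 2734 bins, with the 36 bins called by edgeR circled. Lower-depth (red) and higher-depth (green) bins are centred slightly below 0 like the other bins, with 3 circled members at 0.802, 0.847 and 1.22.

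The member bins held 1856 protein-coding genes by midpoint, of which 1840 were tested for mCG over the gene body. Of these, 24 were called (1.304%), 23 higher and 1 lower in ZNF274KO, against 0.973% of all 19018 gene bodies tested and 0.941% called higher (edgeR, adjusted p under 0.05 over all). The 24 genes lay in few places, with 16 on chromosome 19, 6 in the last block of chromosome 5 and 2 on chromosome 2. On chromosome 19 the members had 16 called of 568 (2.82%), against 112 of all 1476 gene bodies of that chromosome (7.59%), and outside it 8 of 1272, against 73 of all 17542 gene bodies there (0.416%). Over all 1840 member genes the difference had a median of -0.875 points, against -0.939 for all gene bodies tested.

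Zinc finger genes, taken by symbol, made up 15 of the 24. They were 15 called of 84 in member bins, all higher, against 106 of 552 on all autosomes, of which 105 were higher. Within lower-depth bins 12 of 77 were called and within higher-depth bins 3 of 7. The called share was 15.6% in lower-depth bins, 42.9% in higher-depth bins, where all 3 called genes lay in 1 bin, and 19.2% among zinc finger genes at large. Among the called genes without a zinc finger symbol, the gene model ENSG00000267173 on chromosome 19 covers most of ZNF112 and all of ZNF285. Both are called too, so these calls share CpGs and are not independent.

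On chromosome 5, ZNF454, a KZFP gene at chr5:178368192-178393434, had gene-body levels of 18.6% and 22.5% in WT and 78.9% and 66.1% in ZNF274KO (adjusted p = 5.3e-07, edgeR). Its neighbour ZNF354C, also a KZFP gene, rose from 26.99% and 29.4% to 73.1% and 61.7% (adjusted p = 3.54e-06, edgeR). ZFP2, a zinc finger gene just before them, rose from 32.3% and 33.9% to 68.2% and 57.5%. In each of these genes both knockout libraries lay above both WT libraries, with ZNF274KO 1 the higher.

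GRM6, which encodes a glutamate receptor of retinal bipolar cells and lies between ZNF454 and ZNF354C, rose from 47.2% and 45.7% to 77.7% and 73.2% (adjusted p = 1.07e-06, edgeR). MSANTD5, at the near side of the same bin, rose from 51.6% and 49.9% to 74.8% and 70.8%, over 65 CpGs, most of its stretch lying within an overlapping gene model, ENSG00000285978, that was also called. All 6 called genes of the block lay in this bin, so they are not independent of the call of the bin.

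On chromosome 19, ZFP82 (chr19:36874022-36909546) had the largest rise in a lower-depth bin, from 42.9% and 41.0% in WT to 78.5% and 74.1% in ZNF274KO (adjusted p = 8.8e-07, edgeR). ZNF793 rose from 42.4% and 41.2% to 76.8% and 67.7% (adjusted p = 1.79e-05, edgeR), and ZNF404 from 32.6% and 29.6% to 68.0% and 55.6% (adjusted p = 0.000201, edgeR). ZNF667, ZNF229 and ZNF285 rose by 26.4, 25.9 and 25.6 points. The calls behind ZFP82 numbered 2966 and 3138 in ZNF274KO against 4040 and 3334 in WT. The levels of the groups did not overlap in any of these 6 genes.

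Genes that are not zinc finger genes were also among those called on chromosome 19. CEACAM20, a carcinoembryonic antigen family member, rose by 17.05 points, LYPD5 by 13.04 and WDR87 by 12.8. On chromosome 2, B3GALT1, which encodes a galactosyltransferase, had 22.3% and 31.1% in WT and 45.5% and 36.8% in ZNF274KO (adjusted p = 0.0165, edgeR). SP9, a transcription factor of interneuron development and the only called gene that fell, had 21.1% and 24.1% in WT and 13.7% and 14.5% in ZNF274KO (adjusted p = 0.0115, edgeR). The WT libraries of B3GALT1 lay further apart than the nearest libraries of its 2 groups.

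Gene fits without 1 library also leave 1 library in a group, with the spread taken from the other group, so estimates are given instead of calls. The log2 odds ratio of B3GALT1, 0.955 with all libraries, was 0.697 without ZNF274KO 1 and 1.21 without ZNF274KO 2. It was 0.631 without WT 1 and 1.28 without WT 2. For SP9, at -0.827, it was -0.780 without ZNF274KO 1 and -0.875 without ZNF274KO 2. In the same order it was 2.92 and 3.86 for ZNF454 (3.38 with all libraries), and 1.98 and 2.33 for ZFP82 (2.16). By limma 7 of the 24 remained called, namely ZNF454, ZNF354C, ZFP82, GRM6, ZNF667, ZNF285 and MSANTD5, while ZNF404 (adjusted p = 0.0899), ZNF793 (0.0621), ZFP2 (0.0696), ZNF229 (0.0536), CEACAM20 (0.222), LYPD5 (0.213), WDR87 (0.153), B3GALT1 (0.545) and SP9 (0.158) were among those lost. No gene changed direction in these fits.

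**Figure D5:**
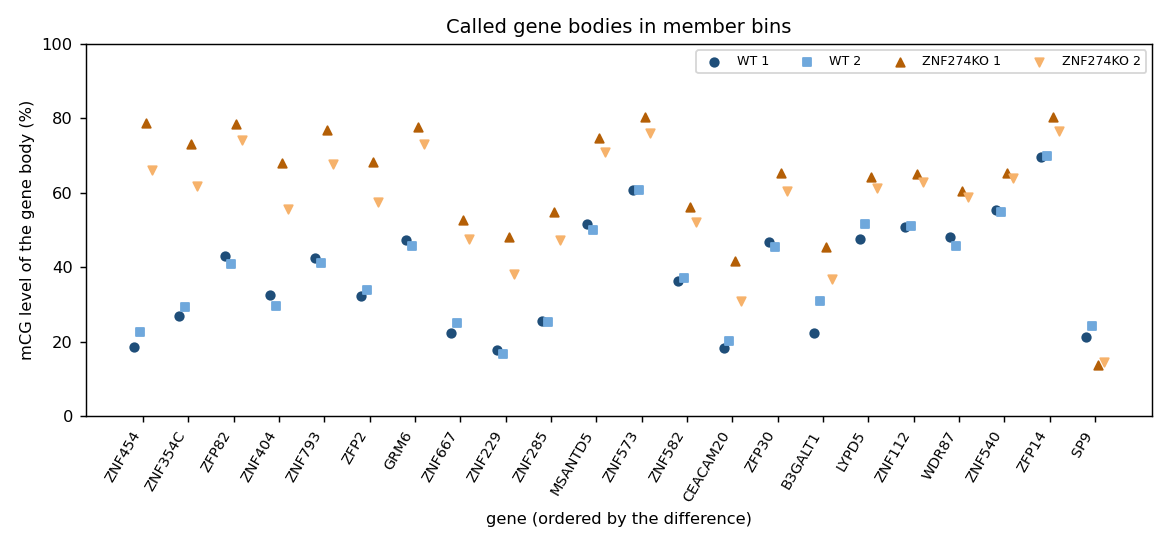
Gene-body mCG level in percent (y axis) in each library for the 22 called genes of member bins that have a symbol (x axis, ordered by the difference), 1 point a library. The ZNF274KO points lie above the WT points for 21 genes, from ZNF454 down to ZFP14, and below them for SP9.

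Member bins held 1856 of 19229 autosomal protein-coding genes (9.65%), against which the lists of pathway genes may be read. Of 12 autosomal genes of DNA methylation, TET2, which encodes a dioxygenase that oxidises 5-methylcytosine, lay in a higher-depth bin (ratio 1.154), and its gene-body level was 76.5% and 73.7% in WT against 75.5% and 71.3% in ZNF274KO (adjusted p = 0.828, edgeR). Depth in the bin of TET2 was 171 (WT 1), 223 (WT 2), 234 (ZNF274KO 1) and 221 (ZNF274KO 2), so WT 1 stood apart from the other libraries. Of 10 genes of H3K36 methylation, NSD1, an H3K36 methyltransferase, lay in a higher-depth bin of chromosome 5 (ratio 1.17) with depths of 733, 983, 983 and 1027 in the same order.

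None of 18 autosomal genes of KAP1 and H3K9me3 silencing and none of 9 of CTCF and cohesin lay in a member bin. Of 10 genes of the nucleolus, 4 did. NPM1, which encodes nucleophosmin, lay in a higher-depth bin (ratio 1.16), and NCL (nucleolin), NOP58 (a box C/D ribonucleoprotein core protein) and FBL (fibrillarin, the rRNA methyltransferase) lay in lower-depth bins (0.837, 0.822 and 0.750). Depth in the FBL bin was 548 and 551 in WT and 394 and 431 in ZNF274KO. None of these 6 listed genes was called for mCG. The 53 clustered protocadherin genes, of which 17 were called for mCG, all lay in 1 bin of chromosome 5 that was no member, with a ratio of 1.03.

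Starts of 2 imprinted genes that fell in lower-depth bins were looked at after the values had been seen. At HYMAI, on chromosome 6 in a bin with a ratio of 0.809, the level within 1 kb of the start averaged 12.9% ± 2.08 over WT and 11.96% ± 0.292 over ZNF274KO libraries (SD, n = 2 each). At CMKLR2-AS, on chromosome 2 with a ratio of 0.834, it was 91.0% ± 0.458 and 88.7% ± 3.78. Each difference was smaller than the SD of the more variable group but larger than that of the other group.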

How the data were processed

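The authors converted DNA enzymatically (NEBNext EM-seq), sequenced paired 100-base reads and called CpGs with Msuite2, with HISAT2 as mapper, on hg19 with an rDNA unit added. Whether duplicate or poorly placed reads were removed is not given in the sources used here. Each deposited file lists, per CpG, raw read counts in all and by base call and strand, not scaled. All listed CpG positions on chromosomes 1 to 22 (26540102) lay on CG of the GRCh37 reference. Depth was summed over listed CpGs, so bins poor in CpGs have few calls. PCR duplicates and CpG content may affect it.

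The mCG level was (methylated) / (methylated + unmethylated) counts of both strands. Methylated and unmethylated counts per bin and per protein-coding gene body (GENCODE 44 lifted to GRCh37, at least 20 calls and 5 CpGs in every library) were tested with edgeR 4.0.16 quasi-likelihood F-tests (R 4.3.3) with a coefficient for each library, and Benjamini-Hochberg adjustment over all features. limma 3.58.1 was an alternative. The fit was tested on simulated data. Groups came from the sample titles.

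Members and gene lists were chosen with earlier results of these data known. Text names the 6 longest blocks of each direction, called bins, up to 10 largest rises and falls among called genes with at least 50 CpGs, and listed genes. Items outside that rule (the end of chromosome 1, the shorter blocks of chromosomes 3, 9 and 19, the edges described, ZNF274 flanks, gaps and single bins of chromosome 19, imprinted starts, and the called genes MSANTD5, CEACAM20, LYPD5, WDR87 and B3GALT1) were chosen after their values were seen. So were ZNF112 and the gene models that overlap called genes. Python 3.11.15 with pandas 2.3.3 and numpy 2.4.6 was used. Sex chromosomes, rDNA and mitochondrial calls were not used here.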

Additional observations from a re-analysis of the deposited data

How the results depend on the processing

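The number of lower-depth bins, 238, was 180 to 289 with 1 library left out and 51 at thresholds 20% below and above 1. The number of higher-depth bins, 36, was 1 to 97 with 1 library left out, 20 with the ratio divided by its running median over CpG density (254 lower), and 6 at the stricter thresholds. The other settings (bins with 1000 CpGs, no CpGs deeper than 5 times the median, CpGs listed in all libraries, median scaling, bins of 500 kb) gave 227 to 238 and 35 to 39. The mCG difference was -1.58 to 0.309 points in lower-depth and -0.950 to 0.878 points in higher-depth bins with 1 library left out. The count of bins called for mCG, 36 in all and 3 members, was 15 and 1 with log-odds centred on the genome-wide level. With 1 library left out it was 0 to 45 in all, with 315 bins at an unadjusted p under 0.05 where it was 0 (edgeR, without ZNF274KO 1), and 0 to 4 among members. Fits without 1 library leave 1 library in a group, whose spread then comes from the other group, so these counts cannot decide on a call. By limma the count of bins called was 36 and 2. Gene bodies called, 185 in all and 24 in member bins, were 61 and 8 by limma, 98 to 224 and 14 to 28 with 1 library left out, and 7 of the 24 genes remained with limma.

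The replicate numbers of the libraries are not known to pair them, and differences between replicate 2 and 1 in WT and in ZNF274KO correlated at -0.131 over bins and -0.0346 over gene bodies for the mCG level, and at 0.152 over bins for the log2 depth. With the replicate number as a block, 23 bins (2 members, the chromosome 2 bin being lost at adjusted p = 0.244, edgeR) and 264 gene bodies (28 in member bins) were called. With crossed numbers, a pairing chosen after the data were seen, 67 bins (5 members, the chromosome 19 bin not among them) and 304 gene bodies (34 in member bins) were called. The cause was not tested. With 2 libraries a group the spread of a group is poorly known, and no karyotype of these libraries was used here. The paper reports array karyotyping of WT and knockout clones before DNA-FISH, done so that ploidy was consistent. It does not say whether those clones gave these libraries.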
